A study of Mus musculus with 40 samples.

Results

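Cerebellar granule cells are the small excitatory neurons that fill the granular layer of the cerebellum. The genes described here are 10 genes known for their use in these neurons, namely Gabra6, Cbln1, Cbln3, Neurod1, Zic1, Zic2, Barhl1, En2, Fat2 and Etv1. Members were the probes whose gene name on the array equals one of these symbols, which gave 15 probes of 55589 and 10 gene names of 36362. Of these genes, 5 have 2 probes each, and the brighter probe, by its mean over the 40 arrays, stands for the gene unless the second probe is named.

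RNA of mouse cerebral cortex and cerebellum was hybridised to 40 arrays, 4 mice per group and 10 groups. All mice had a C57Bl/6 background. The 5 groups of a region were called young mice (wild type, 2 months, normal diet with 36 mg of α-tocopherol per kg), aged controls (wild type, 29 months, same diet), deficient wild-type mice (29 months, diet deficient in α-tocopherol), deficient Ttpa-/- mice (29 months, that diet) and supplemented Ttpa-/- mice (29 months, 600 mg per kg). Ttpa is the gene of the transfer protein for α-tocopherol, the main form of vitamin E. The labels give the mutation as Ttpa-/- only. There was no aged Ttpa-/- group on the normal diet and no young Ttpa-/- group, so both Ttpa-/- groups differed from aged controls in diet and genotype. Of the labelled conditions, deficient Ttpa-/- mice differed from deficient wild-type mice in genotype alone, but these groups lay on different slides in both regions.

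The arrays lay on 5 slides of 8, and each slide held 2 groups. The 2 groups of a slide could be compared within it for age in the cortex, for the deficient diet in wild-type cerebellum and for the diet of Ttpa-/- mice in the cerebellum. In the other comparisons between groups of different slides, slide and condition cannot be told apart. On the brighter of the 2 Ttpa probes in cerebellum, all 12 wild-type arrays were well above background and 1 of 8 Ttpa-/- arrays was. The 75th percentile signal of an array, the scale used here, was between 365 and 925, and 51.4% to 61.4% of probes were well above background. All values below are log2 signals relative to that percentile, so 0 is the level that 75% of the probes of the array do not exceed, and levels of different probes are not compared.

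Granule cells arise from the rhombic lip, and their lineage uses the transcription factors Barhl1, Zic1, Zic2 and Neurod1. Mature granule cells carry the α6 subunit of the GABA-A receptor, encoded by Gabra6, which is hardly used elsewhere in the brain. They send parallel fibres to Purkinje cells, where Cbln1, a secreted synaptic organiser of the cerebellin family, acts between the fibre and the Purkinje dendrite, and Cbln3 is its partner in granule cells. Fat2 is a large atypical cadherin of parallel fibres, En2 a homeodomain factor of the midbrain and hindbrain, and Etv1 an ETS factor. The tissue labels were checked against marker lists. The summed linear level of 16 Purkinje genes ran from 1160 to 1650 in cerebellum and from 590 to 798 in cortex, and that of 11 cortical projection neuron genes from 3.71 to 5.25 in cerebellum and from 70.0 to 99.9 in cortex. The regions did not overlap on either list.

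Promoter sequence from RefSeq (build GRCm38.p6, 250 bases before to 50 after the start site) was held for 7 of the 10 genes. These had 9 promoters, since Barhl1 and Etv1 had more than 1. The 6-base site TTGGCA is the half-site of nuclear factor I, which is known to act on Gabra6 in maturing granule neurons. Of 5 motifs searched on both strands, this site occurred in 3 of the 9 promoters (Gabra6, Cbln3 and 1 of Etv1). It occurred in 14.1% of 32851 promoters of this length. The other motifs were CANNTG (the E-box of helix-loop-helix factors such as Neurod1, 72.3% of promoters and 7 of the 9 member promoters, from 6 of the 7 genes), CATCTG (a form of CANNTG, 17.2%, 1 promoter of Etv1), TAATTA (a homeodomain core, 5.3%, 1 of Barhl1) and TATAAA (the TATA box, 13.6%, 1 of Etv1). The promoters of Gabra6 (chr11:42321023-42321322, minus strand) and Cbln3 (chr14:55884207-55884506, minus strand) are shown because these 2 genes had no detected signal in cortex. Capitals mark the half-site on the opposite strand, at position -50 in Gabra6 and -146 in Cbln3 relative to the start site. A match describes letters and no binding.
Gabra6: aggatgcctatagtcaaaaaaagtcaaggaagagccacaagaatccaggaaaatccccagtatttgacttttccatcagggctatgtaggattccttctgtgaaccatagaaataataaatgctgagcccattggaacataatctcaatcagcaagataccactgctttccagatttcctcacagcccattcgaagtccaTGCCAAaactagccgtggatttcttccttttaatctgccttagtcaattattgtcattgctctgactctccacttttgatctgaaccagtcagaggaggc
Cbln3: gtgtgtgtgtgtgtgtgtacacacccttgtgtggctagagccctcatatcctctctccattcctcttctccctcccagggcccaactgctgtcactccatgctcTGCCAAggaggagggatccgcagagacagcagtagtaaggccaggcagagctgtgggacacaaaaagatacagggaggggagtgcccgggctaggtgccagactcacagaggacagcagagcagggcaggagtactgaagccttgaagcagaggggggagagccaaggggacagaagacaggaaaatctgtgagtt

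All 10 genes were higher in cerebellum than in cortex in young mice, and 9 passed both criteria, an adjusted p under 0.05 in limma and a fold change over 1.5. Of all probes tested, 19.3% were called higher in cerebellum. The same counts were 10 of 10 in aged controls (17.8% of all probes), 9 of 10 in deficient wild-type mice (23.2%), 9 of 10 in deficient Ttpa-/- mice (21.4%) and 10 of 10 in supplemented Ttpa-/- mice (19.8%). The exception was Barhl1. The median member differed by 6.12 on the log2 scale in young mice, against -0.02 for all tested probes. Regions lay on different slides in these comparisons. In the only 2 regional groups of 1 slide, young cerebellum and deficient Ttpa-/- cortex, 9 of 10 members were again called higher in cerebellum, with age, genotype and diet differing too.

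**Figure D1:**
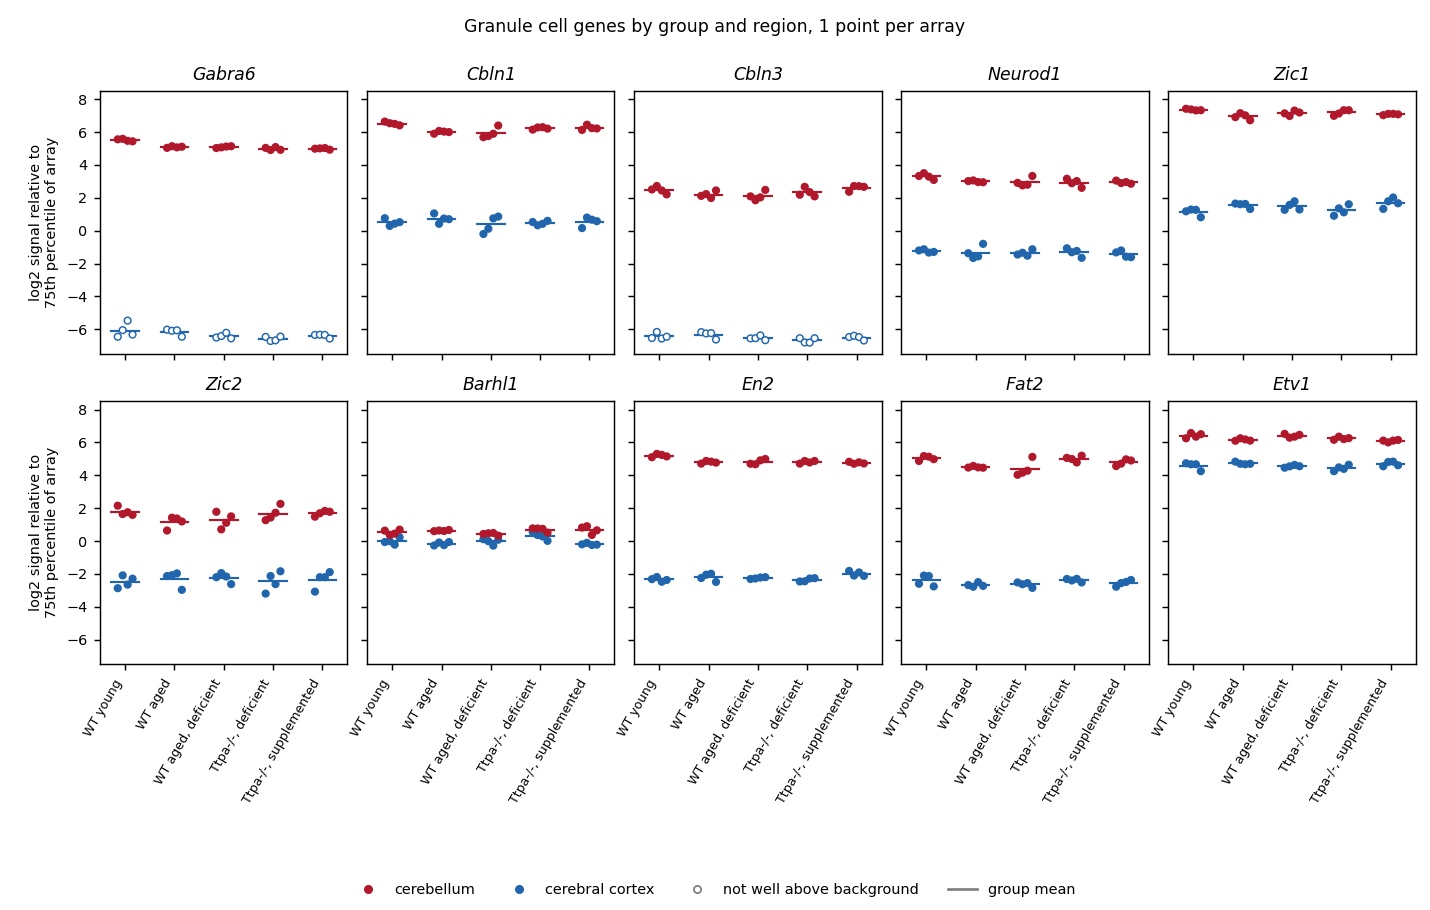
Log2 signal relative to the 75th percentile of the array (vertical axis) for the 10 genes, by group (horizontal axis), with 1 point per array, cerebellum in red, cerebral cortex in blue, horizontal lines at group means and open points not well above background. Gabra6 in cerebellum lies between 4.91 and 5.59 and in cortex no array is well above background, while the Barhl1 points of both regions lie close together.

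For Gabra6 and Cbln3 only lower bounds on the regional difference can be given, which do not rank them against the other members. The Gabra6 probe (mm9 chr11:42120087-42120146, minus strand) read 5.56, 5.59, 5.47 and 5.44 in the 4 young cerebella and -6.45, -6.05, -5.47 and -6.32 in the 4 young cortices. None of the 20 cortical arrays was well above background for Gabra6, so cortex has only a bound, set on each array at the higher of the probe's own value and the lowest signal of any probe well above background. Gabra6 was at least 983-fold higher in young cerebellum, and at least 676-fold to 983-fold over the 5 conditions. Gabra6 and Cbln3 were tested between regions only because they were well above background in cerebellum. Their calls there therefore add no support to the regional counts.

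Of the cerebellins, Cbln3 (chr14:56498792-56498851) was also not well above background on any cortical array. Its values were 2.51, 2.72, 2.45 and 2.21 in young cerebellum and -6.53, -6.16, -6.56 and -6.45 in young cortex, at least 119-fold higher in cerebellum. Cbln1 (chr8:89992776-89992835) was measured in both regions, at 6.64, 6.54, 6.50 and 6.41 in young cerebellum and 0.50 ± 0.20 (SD, n = 4) in young cortex. The difference was 6.02 ± 0.17 (SE). Over the 5 conditions it ran from 5.27 to 6.02. The second Cbln1 probe was well above background on no young cortical array and was at least 85.1-fold higher in young cerebellum.

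Cbln2 and Cbln4, the cerebellins outside granule cells, went the other way in young mice, with log2 differences of -2.05 and -4.53. Among 12 GABA-A receptor subunit genes other than Gabra6, only Gabrd, whose δ subunit pairs with α6 in granule cells, was called higher in young cerebellum (1.54), and 7 were called lower, with Gabra5 at -5.72, Gabra3 at -3.68 and Gabrg3 at -3.62.

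The remaining members were measurable in cortex. En2 (chr5:28498468-28498528, 10 spots per array) read 5.20 ± 0.09 (SD, n = 4) in young cerebellum and -2.34 ± 0.12 in young cortex, a difference of 7.54 ± 0.09 (SE). Fat2 (chr11:55064146-55064205) read 5.04 ± 0.14 and -2.40 ± 0.33, a difference of 7.43 ± 0.16. The order of the measured differences in young mice went on with Zic1 (chr9:91255425-91255484) at 6.22 ± 0.14, Cbln1 as above, Neurod1 (chr2:79294309-79294368) at 4.54 ± 0.15, Zic2 (chr14:122879296-122879355) at 4.26 ± 0.28 and Etv1 (chr12:39593054-39593113) at 1.84 ± 0.09. The 95% intervals of En2 and Fat2 overlapped, as did those of Zic1 and Cbln1 and those of Neurod1 and Zic2. Etv1 read 6.42 ± 0.14 in cerebellum and 4.58 ± 0.22 in cortex, a strong signal in both, and Etv1 is also known in layer 5 neurons of the cortex.

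The 2 Barhl1 probes disagreed. The brighter one (chr2:28763200-28763239) read 0.63, 0.37, 0.45 and 0.69 in young cerebellum and -0.06, -0.01, -0.22 and 0.23 in young cortex. The groups did not overlap and differed by 0.55 ± 0.11 (1.46-fold, limma adjusted p = 7.25e-05), under the fold threshold. The second probe (chr2:28763253-28763312) read 1.23 ± 0.35 in young cerebellum and was not well above background on any of the 20 cortical arrays, at least 50.4-fold lower there. On 1 slide the brighter probe gave 0.23 ± 0.11 between the regions (adjusted p = 0.0603) and the second at least 61.0-fold. The file maps 40 bases of the brighter probe and 60 of the second, a few bases apart in the same gene on the minus strand. A Barhl1 result therefore depends on the probe, and the cause was not tested.

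**Figure D2:**
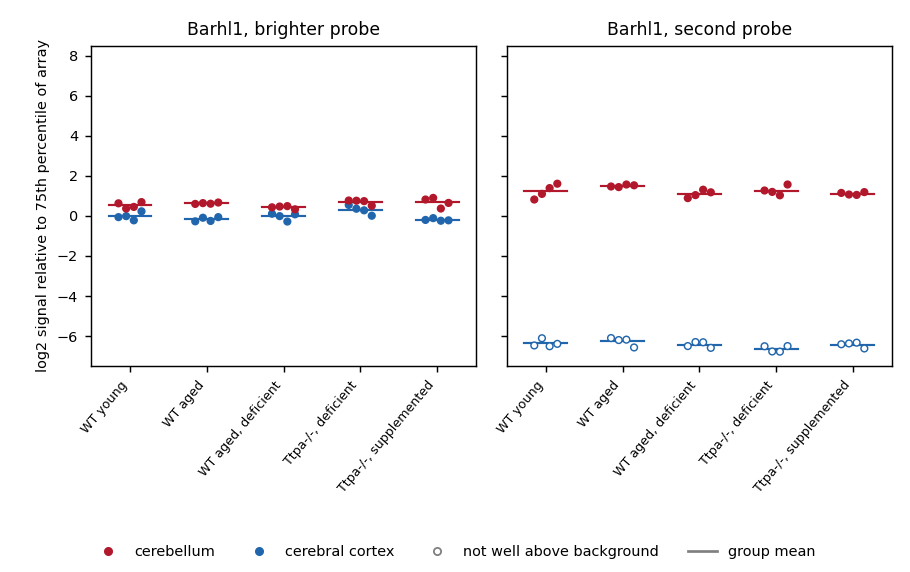
Log2 signal relative to the 75th percentile of the array (vertical axis) for the 2 probes of Barhl1 by group (horizontal axis), 1 point per array, colours and open points as for the 10 genes. The brighter probe is near 0 in both regions, and the second is between 0.82 and 1.61 in cerebellum and not well above background in any cortical array.

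A further list of 22 genes known from granule cells was read the same way. In young mice 17 of 22 were called higher in cerebellum and 1 lower, with a median of 1.52. The 4 largest were Calb2 (calretinin, 5.44), Zic4 (4.17), Meis1 (3.90) and Chn2 (3.89). The gene called lower was Slc17a7, the vesicular glutamate transporter VGLUT1, at -1.53, which cortical excitatory neurons also use. Of 16 Purkinje genes 13 were called higher and 1 lower, led by Pcp2 at 8.86, Lhx1 at 8.41, Lhx5 at 8.08 and Car8 at 6.72.

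With age, 9 of the 10 granule cell genes had estimates under 0 in wild-type cerebellum, and all changes were small. No member passed both criteria (1.04% of all probes tested were called lower). By adjusted p alone 4 of 10 were lower in aged mice, Gabra6, Cbln1, En2 and Fat2, where 4.08% of all probes were. In 8 of 10 the 4 aged arrays all lay under the 4 young ones, where 9.24% of all probes did so. The median change of the members was -0.41, against -0.01 for all probes. In bulk tissue, fewer granule cells and less RNA per cell cannot be told apart, and young and aged cerebella lay on different slides.

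En2 was the most stable of these. Its values were 5.10, 5.30, 5.24 and 5.15 in young cerebellum and 4.71, 4.87, 4.83 and 4.77 in aged. The change was -0.40 ± 0.09 (SE, limma adjusted p = 0.00288, 1.32-fold). The adjusted p stayed under 0.05 in all 18 alternatives tried, from 0.000278 to 0.0444. Gabra6 read 5.56, 5.59, 5.47 and 5.44 in young and 5.04, 5.14, 5.07 and 5.11 in aged cerebellum, a change of -0.42 ± 0.13 (adjusted p = 0.0236). All 16 aged cerebellar arrays, of either genotype and every diet, lay under all 4 young ones for Gabra6 (4.91 to 5.14) and for En2 (4.67 to 4.99). That held for 2 of the 10 members and for 2.99% of all probes.

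Cbln1 read 6.64, 6.54, 6.50 and 6.41 in young and 5.90, 6.07, 6.03 and 6.00 in aged cerebellum, a change of -0.52 ± 0.17 (adjusted p = 0.0451). The second Cbln1 probe changed by -0.56 ± 0.31 and did not pass (limma adjusted p = 0.282). Fat2 read 4.87, 5.17, 5.13 and 4.98 in young and 4.47, 4.57, 4.48 and 4.46 in aged cerebellum, a change of -0.54 ± 0.16 (adjusted p = 0.0248). For both, the aged values stayed under the young ones. Their adjusted p was above 0.05 when some single arrays were left out, up to 0.121 for Cbln1 without young replicate 1 and 0.0844 for Fat2 without young replicate 2, and under median scaling (0.0843 and 0.0656). Gabra6 reached 0.0759 without young replicate 2.

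The transcription factors other than En2 did not pass. Zic1 changed by -0.41 ± 0.14 (adjusted p = 0.0548) and its second probe by -0.43 ± 0.12 (0.0197). Zic2 had the largest point estimate, -0.63, with a 95% interval from -1.20 to -0.05 and an adjusted p of 0.168. Neurod1 was at -0.31 (0.211), Etv1 at -0.26 (0.0680) and Cbln3 at -0.27 (0.233). Barhl1 was the only member with a positive change, 0.10 on the brighter probe (0.709) and 0.27 on the second (0.215).

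**Figure D3:**
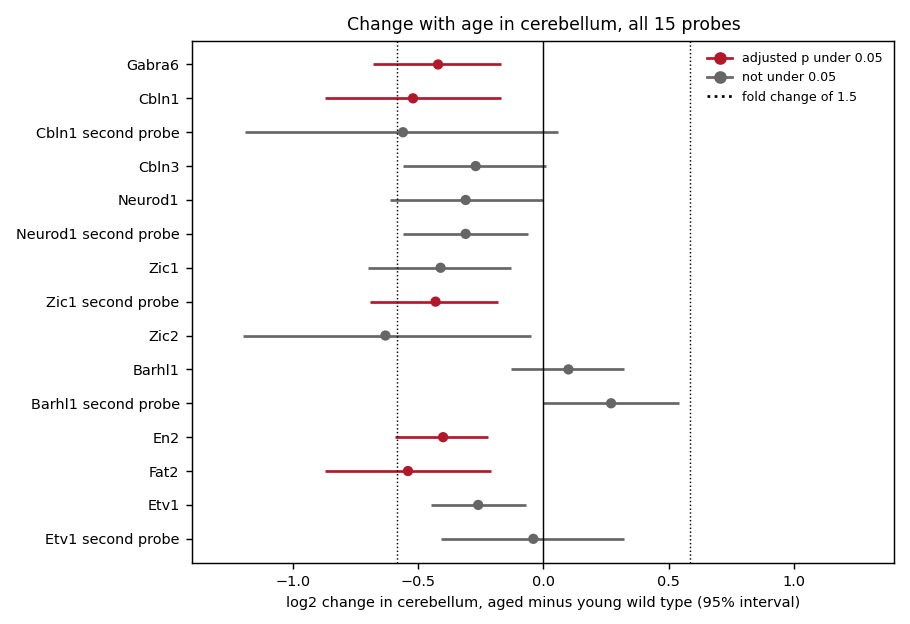
Change with age in wild-type cerebellum for the 15 probes (vertical axis) as the log2 difference of aged minus young mice with its 95% interval (horizontal axis), red where the limma adjusted p is under 0.05, dotted lines at a fold change of 1.5. Of the 15 probes, 13 have point estimates under 0, and the exceptions are both Barhl1 probes, at 0.10 and 0.27.

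Other cell types differed between the same young and aged cerebella. The summed level of 9 choroid plexus genes was 251, 33.2, 12.2 and 9.24 in the 4 young cerebella and 6.35 to 7.31 in the aged ones, and that of 7 microglial genes was 12.5 to 16.8 in young and 29.8 to 34.1 in aged. In the list counts, 6 of 7 microglial genes were called higher with age (C1qa by 2.25), 3 of 8 choroid plexus genes lower (Ttr by -7.70), and none of 16 Purkinje genes in either direction, 2 of which were lower by adjusted p alone. The median change of the Purkinje genes was -0.21, beside -0.41 for the granule cell genes. The summed level of 6 astrocyte genes was 37.9 to 47.4 in young and 57.1 to 68.0 in aged cerebella, and 1 of the 6 was called higher (Gfap by 1.87). Of 8 striatal genes tested, 3 were called higher with age. The summed level of that list overlapped, at 56.7 to 58.9 in young and 54.5 to 71.4 in aged cerebella. Without young replicates 1 and 2, which had most of the choroid plexus signal, En2 gave -0.40 (adjusted p = 0.0377), Gabra6 -0.36 (0.260), Cbln1 -0.45 (0.328) and Fat2 -0.56 (0.135). The part of these cells in the changes was not tested.

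Of the further 22 granule cell genes, none passed both criteria with age in cerebellum and 6 were lower by adjusted p alone. Of those, Nfib, a nuclear factor I gene, was at -0.49 (limma adjusted p = 3e-05) and Cadps2, a vesicle release gene, at -0.47 (0.000184), both named after their values were seen. Among the 12 GABA-A subunits 3 were called higher with age, Gabra5 by 2.05, Gabra3 by 1.03 and Gabrg3 by 0.92, and Gabra2 was called lower by -0.89. Of 10 genes known from dividing progenitors, 7 could be tested, with a median change of -0.11. Only the cyclin gene Ccnd1 was called, lower by -1.01.

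In cortex none of the 8 members that could be tested was called with age (2.09% of all probes), and both groups lay on 1 slide. Zic1 was 1.18, 1.29, 1.27 and 0.82 in young and 1.65, 1.61, 1.63 and 1.32 in aged cortex, a change of 0.41 (adjusted p = 0.105). The difference between the regions in the effect of age was -0.82 ± 0.20 for Zic1 (adjusted p = 0.0227), the only member called there, where 1.46% of all probes were. En2 differed by -0.55 ± 0.13 (adjusted p = 0.0190), under the fold threshold. By adjusted p alone, 1.83% of all probes differed there. Among 10 striatal genes, 3 were called lower with age in cortex and 3 higher in the difference between the regions. Their part in the Zic1 and En2 differences was not tested. The Zic1 call was lost without any of 3 arrays: young cortex replicate 4 (-0.71, adjusted p = 0.0612), aged cortex replicate 1 (-0.79, 0.0528) or aged cerebellum replicate 4 (-0.75, 0.0638). Its second probe gave -0.58 (0.0967).

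Among aged cerebella 1 member was called with genotype or diet. Over 5 comparisons and 10 genes, the 50 changes of the brighter probes ran from -0.29 to 0.61. Some second probes differed from these. That of Neurod1 had means of 2.94 in deficient and 2.83 in supplemented Ttpa-/- mice, against 2.58 in aged controls. The brighter Neurod1 probe had 2.92, 2.94 and 3.00 in these groups. The second Cbln1 probe was lower in supplemented Ttpa-/- mice (1.38) than in aged controls (1.56), while the brighter was higher (6.26 against 6.00). Members called were 0 for deficient Ttpa-/- mice against aged controls (4.46% of all probes), 0 for deficient wild-type mice against aged controls (1.28%), 0 for supplemented Ttpa-/- mice against aged controls (4.91%), 1 for genotype under deficiency (4.94%) and 0 for diet in Ttpa-/- mice (0.343%). The diet comparison of either genotype was made within 1 slide. Gabra6 changed by between -0.10 and 0.00 in these, with intervals reaching from -0.36 to 0.26, and En2 by between -0.04 and 0.05, with intervals from -0.22 to 0.24.

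Fat2 was the member called. Under deficiency it read 5.06, 4.99, 4.78 and 5.19 in Ttpa-/- cerebellum and 4.03, 4.16, 4.28 and 5.12 in wild-type cerebellum. Wild-type replicate 4 lay among the Ttpa-/- values, so the groups overlapped. The change was 0.61 ± 0.16 (1.52-fold, limma adjusted p = 0.0111). Without that replicate it was 0.85. Leaving out any other wild-type array ended the call (0.49 without replicate 1, 0.53 without 2, 0.57 without 3), as did leaving out Ttpa-/- replicate 4 (0.55). The fit of the 2 groups alone gave an adjusted p of 0.238. Against aged controls (4.47, 4.57, 4.48 and 4.46) the deficient Ttpa-/- values were higher by 0.51 (adjusted p = 0.0320), under the fold threshold, where 13.2% of all probes had an adjusted p under 0.05. These comparisons share the Ttpa-/- arrays, and in both, slide and condition cannot be told apart. The same wild-type replicate 4 was also the highest of its group for Cbln1 (6.40), Neurod1 (3.33) and Cbln3 (2.48).

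Cbln3 was higher in supplemented Ttpa-/- mice than in aged controls by 0.42 ± 0.14 (adjusted p = 0.0373), under the fold threshold, with values of 2.37, 2.72, 2.71 and 2.67 against 2.12, 2.23, 1.99 and 2.45. The groups overlapped, and 14.7% of all probes had an adjusted p under 0.05. The second Barhl1 probe was lower by -0.39 in the same comparison (adjusted p = 0.0460), with no overlap, while its brighter probe gave 0.06. The second probe was also lower in deficient wild-type mice, at 0.89 to 1.31 against 1.44 to 1.57 in aged controls. There the brighter probe gave -0.2 (limma adjusted p = 0.303).

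Barhl2, the paralog of Barhl1 and a gene from the further list of 22, was the only gene of that list called in all 3 comparisons of Ttpa-/- with wild-type cerebellum. It lay between -2.20 and -1.71 in deficient Ttpa-/- mice and between -2.37 and -2.13 in supplemented ones, against -4.32 to -3.64 in aged controls, -3.91 to -3.12 in deficient wild-type mice and -4.12 to -3.17 in young mice. On wild-type cerebellar arrays the lowest signal of any probe well above background was -5.43 to -4.69, so Barhl2 was low there. No Ttpa-/- array overlapped a wild-type one. The shares of all probes without such overlap, or called in all 3 comparisons, were not counted. Each comparison alone called 4.46%, 4.91% and 4.94% of all probes. Barhl2 was higher by 2.09 ± 0.19 (SE) in deficient Ttpa-/- mice than in aged controls (adjusted p = 4.49e-09), by 1.79 in supplemented Ttpa-/- mice (1.1e-07) and by 1.64 between genotypes under deficiency (4.7e-07), and the call held in all 17 alternatives of each comparison, where the changes ran from 0.90 to 2.22. It did not pass for diet in Ttpa-/- mice (0.30, 0.592) or in wild-type mice (0.45, 0.155). These comparisons share arrays, and Ttpa-/- and wild-type cerebella lay on different slides. Barhl2 has 1 probe and was not well above background in any cortical group. Of the same list, Mef2a was called higher in 2 of the comparisons, by 0.75 and 0.81, and Mef2d lower in 1, by -0.76.

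In cortex the members were called in none of the other 5 comparisons. The share of all probes called was 4.75% for deficient Ttpa-/- mice against aged controls, 0.223% for deficient wild-type mice, 0.0920% for supplemented Ttpa-/- mice, 3.07% for genotype under deficiency and 3.31% for diet in Ttpa-/- mice. The 48 changes of the 8 testable members over all 6 cortical comparisons ran from -0.45 to 0.49, of which 6 had an adjusted p under 0.05. All 6 were in the comparisons of deficient Ttpa-/- mice with aged controls (2 members), of genotype under deficiency (1) and of diet in Ttpa-/- mice (3), where 19.0%, 13.0% and 14.1% of all probes had one. The brighter Barhl1 probe was in 3 of these. It read 0.55, 0.36, 0.28 and 0.01 in deficient Ttpa-/- cortex, -0.20, -0.11, -0.24 and -0.22 in supplemented Ttpa-/- cortex and -0.27, -0.09, -0.25 and -0.06 in aged control cortex. The first group lay above the other 2. The changes were 0.49 (adjusted p = 0.00388) and 0.47 (0.00355). The second Barhl1 probe was not above background there. En2 was lower by -0.38 (0.00669) in deficient than in supplemented Ttpa-/- cortex, and Zic1 by -0.45 (0.0285). The second Zic1 probe went the other way, with means of -1.36 in deficient and -1.56 in supplemented Ttpa-/- cortex. Etv1 was lower by -0.28 (0.0303) in deficient Ttpa-/- than in aged control cortex. For the difference between regions in the change from aged controls to deficient Ttpa-/- mice, no member was called, where 3.38% of all probes were.

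Over the 20 cerebellar arrays the members varied together in part. These correlations describe arrays that share groups and slides. The Pearson r of each gene with the mean of the other members was 0.916 for Cbln1, 0.748 for En2 and 0.708 for Fat2, and -0.178 for Barhl1. Of 45 pairs, 37 had a positive r, with a median of 0.400. Gabra6 and En2 were most alike (0.87), followed by Cbln1 and Fat2 (0.826), and Barhl1 and Etv1 least (-0.573).

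The 5 named features most like the mean of the members in cerebellum, among 23212, were 2 intergenic transcript units beside Cbln1, named by position as chr8:90048940-90049461_F (r = 0.946) and chr8:89996710-90049453_F (r = 0.942), then Cdyl2 (0.922), Cmya5 (0.912) and Angel1 (0.911). In cortex the mean of the 8 measured members was most like Odz2 (0.863) and Sec14l4 (0.800).

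The units next to Cbln1 were looked at closer after their values were seen. Within 100 kb of the Cbln1 probe on chromosome 8, 11 probes belong to units on the plus strand, opposite to Cbln1, and 5 to a unit on the minus strand. All 11 plus-strand probes were well above background on all 20 cerebellar arrays, and 5 of them also on all 20 cortical arrays. Those 5 were higher in young cerebellum than in young cortex by 4.36 to 4.72. Their estimates with age in cerebellum were -0.60 to -0.53, all with an adjusted p under 0.05 and 2 of them called. The other 6 had estimates of like size with larger standard errors, and none had an adjusted p under 0.05. Over all 11 the estimates ran from -0.73 to -0.53. Of the minus-strand probes 1 was well above background on all arrays, with -0.64 between the regions and 0.09 with age (adjusted p = 0.821). The stand-in of chr8:90048940-90049461_F, 56.5 kb from the Cbln1 probe, read 4.92 ± 0.14 (SD, n = 4) in young and 4.32 ± 0.07 in aged cerebellum, a change of -0.60 ± 0.12 (SE, adjusted p = 0.000869). An unnamed plus-strand probe 4.0 kb from the Cbln1 probe changed by -0.67 (0.000732). Several of these probes overlap, so they are not separate measurements of separate transcripts.

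**Figure D4:**
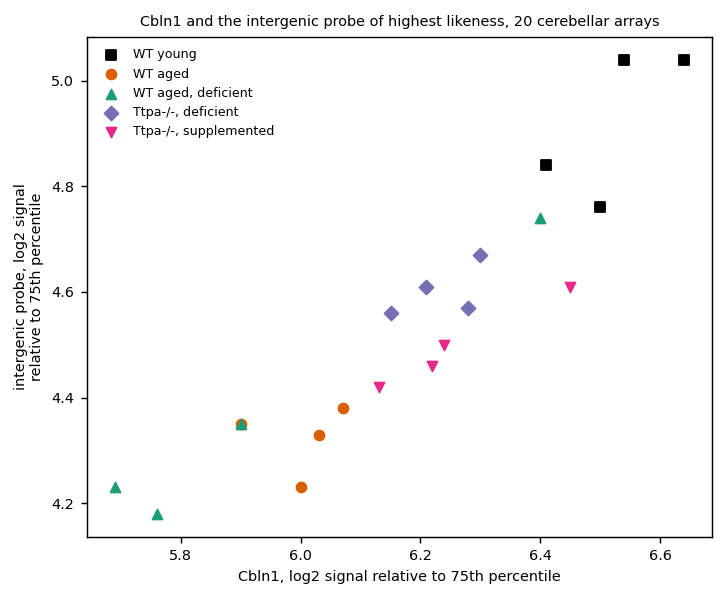
Log2 signal relative to the 75th percentile of the array for Cbln1 (horizontal axis) and the intergenic probe most like the members (vertical axis), 1 point per cerebellar array, marker and colour by group. The 4 young arrays lie at the upper right and the 4 aged controls between 5.90 and 6.07 for Cbln1, deficient wild-type replicates 1 and 2 are lowest (5.69 and 5.76) and its replicate 4 is high (6.40), and r over the 20 arrays is 0.923.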

How the data were processed

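RNA of cerebral cortex and cerebellum of 40 samples was hybridised to 1-colour Agilent arrays. The authors deposited 1 scanner file per array with the processed intensity of each spot and its background flags (Feature Extraction 10.7.3.1 per the file headers, 10.1.1.1 in the submitters' processing notes), and a table of log2 values, which differed from the values used here by a median of 0.00085. Probe positions are mm9.

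Flagged spots (95 to 148 per array) were left out, spots of a probe were averaged on the log2 scale, and each array was scaled by subtracting log2 of its 75th percentile. Each comparison was a contrast in limma 3.58.1 (R 4.3.3) fitted on all 40 arrays with 1 coefficient per group, tested over probes flagged as well above background on every array of 1 or more compared groups. Adjusted p-values are Benjamini-Hochberg over all probes tested. Calls required both the adjusted p (threshold 0.05) and the fold change of 1.5. A marker sum adds the linear values of the brighter probes. The fit was tested on simulated data. The number of arrays limits the precision.

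The members and gene lists were chosen with earlier results of these data known. Named genes were all members, at most the 4 called genes of a list with the largest change, and the 5 features most like the members in a region. The labels do not say whether the cortex and cerebellum of a replicate number came from 1 mouse, and p-values measure the spread between these samples.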

Additional observations from a re-analysis of the deposited data

Results flagged for a closer look

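In 90 groups of 4 arrays in which a member was well above background, 5 had an array far from the other 3 by Dixon's test at the 95% level, and chance flags about 1 in 20. Barhl1 in deficient Ttpa-/- cerebellum read 0.51 in replicate 4, against 0.74 to 0.77. Cbln3 in supplemented Ttpa-/- cerebellum read 2.37 in replicate 1, against 2.67 to 2.72. Etv1 in young cortex read 4.25 in replicate 4, against 4.67 to 4.73. In aged wild-type cortex replicate 4 was low for Zic1 (1.32, against 1.61 to 1.65) and for Zic2 (-2.97, against -2.13 to -1.97).

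The effect of age differed between cerebellum and cortex for Zic1, by -0.82 (limma adjusted p = 0.0227), and for En2, by -0.55 (0.0190). The cortical groups lay on 1 slide and the cerebellar groups on 2.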

How the results depend on the processing

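Of 338 recounts of the members called, 313 stayed within 1.5 times of the count given. In all 40 single-array omissions and in each other normalization, filter and fit, 9 members were called higher in cerebellum in all 5 conditions, and 10 with any probe of a member or without the fold threshold. All 10 members kept the sign of their change with age in cerebellum in all 18 alternatives, and no called member reversed in any.

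With an adjusted p under 0.05 and no fold threshold, the counts, each beside the share of all probes, were 4 for age in cerebellum (main count 0, 4.08% lower), 1 for deficient and 1 for supplemented Ttpa-/- mice against aged controls in cerebellum (0 each, 13.2% and 14.7%), 2 for deficient Ttpa-/- mice in cortex, 1 for genotype under deficiency in cortex and 3 for diet in Ttpa-/- cortex (0 each, 19.0%, 13.0% and 14.1%), and 2 for the difference of the effect of age (1, 1.83%). Genotype under deficiency in cerebellum had 0 members called, in place of 1, in the fit of the compared groups alone and by the methods' t-test. Median scaling gave 1 (Barhl1) in place of 0 for diet in Ttpa-/- cortex. Array weights gave 2 in place of 1 for the difference of the effect of age, and 2 (Cbln3 and Zic1) in place of 0 for that of the deficient Ttpa-/- mice. Without both young arrays high for choroid plexus genes, added after seeing the data, the difference of the effect of age had 0 members called. The cause was not tested.

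Leaving out each array in turn, the members called were 0 to 1 for age in cerebellum (Fat2, -0.60, without young replicate 1), 0 to 1 for genotype under deficiency in cerebellum, 0 to 1 for diet in Ttpa-/- cortex (Barhl1, 0.59, without deficient Ttpa-/- replicate 4), 0 to 2 for the difference of the effect of age, where En2 was added without young cortex replicate 2 (-0.60) or aged cortex replicate 4 (-0.65), and 0 to 1 for that of the deficient Ttpa-/- mice (Zic1, 0.67, without deficient Ttpa-/- cortex replicate 4).

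Replicate numbers were not taken as pairs, since the labels do not say what they share and the deviations of same-numbered cortex and cerebellum arrays correlated from -0.162 to 0.628, over 0.1 in 13 of 20, and in all 4 only among deficient Ttpa-/- mice (0.176 to 0.628). The own number was the best match for 13 of 20, a hint from the data and not from the design. With the replicate number as a block, 0 members were called for age in cerebellum, 1 for genotype under deficiency and 9 for the regions, and no count changed. Slide as a block could be fitted only where both groups shared a slide, and the methods' t-test was not run on differences between effects. Median scaling moved the median of all probes by up to 0.29, between regions. Over all probes, calls for genotype under deficiency in cerebellum were 1510 (923 higher), and 2254 (1964 higher) with median scaling, 569 in the fit of the compared groups alone and 348 by the methods' t-test. Gabra6, Cbln3 and the second Barhl1 probe have only a bound in cortex, and the second Cbln1 probe, well above background on 4 of 20 cortical arrays, has only a bound in young cortex.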
